A study of Mus musculus with 19 samples.

Results

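Expression of 10 receptors through which heart cells hold on to their matrix was measured in the left ventricle of mice after aortic banding, in which a constriction placed on the aorta makes the ventricle work against a higher pressure. They are the integrin alpha subunits Itga5, Itgav, Itga9, Itga6 and Itga7, the integrin beta subunits Itgb1 and Itgb5, the collagen receptor kinases Ddr1 and Ddr2, and the hyaluronan receptor Cd44. The genes were chosen as a family by function and found on the array as the probe sets that the platform annotation gives exactly 1 of these symbols. For each gene the probe set that was brightest on average over the 19 arrays was used, and its other probe sets were compared beside it. All 10 genes were above the filter on low values on all 19 arrays, and they are 10 of the 10733 genes tested.

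The tissue came from male C57BL/6 mice that were operated at 7 weeks of age and killed 4 weeks later, with 1 Affymetrix array per mouse. The groups are 7 mice with banding and heart failure (HF mice), 7 mice with banding and no heart failure (non-HF mice) and 5 sham-operated mice. Both banded groups had the same operation and are told apart by outcome, for which the labels give no criterion. The p-values measure the spread between these mice.

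Integrins are pairs of an alpha and a beta subunit that bind the extracellular matrix outside the cell and the actin cytoskeleton inside it, and in cardiomyocytes they sit at the costameres, where contractile force is passed to the matrix. The alpha subunit sets most of the ligand choice: Itga5 and Itgav bind the RGD motif of fibronectin and related proteins, Itga9 binds tenascin C and several other ligands, and Itga6 and Itga7 bind laminin in the basement membrane. Ddr1 and Ddr2 are tyrosine kinases that are activated by collagen itself, and Cd44 is the main cell surface receptor for the polysaccharide hyaluronan.

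Of the 10 receptors, 7 were higher in HF mice than in sham mice and 0 were lower, by limma across all genes with Benjamini-Hochberg adjustment and a threshold of 0.05. The 7 were Itga5, Itgav, Itga9, Itgb1, Itgb5, Ddr1 and Cd44, with log2 changes between 0.30 and 1.83. Of all genes tested, 39.3% passed in this comparison, 20.4% as higher and 18.9% as lower. The median log2 change was 0.46 over the 10 receptors and 0.01 over all genes. For 6 of them the HF and sham arrays did not overlap, with HF higher, as was so for 8.5% of all genes. In bulk tissue a change in the number of cells of a type and a change in RNA per cell cannot be told apart.

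In non-HF mice 4 receptors were higher than in sham mice and 0 were lower: Itga5, Itga9, Itgb5 and Ddr1. Here 17.4% of all genes passed, 10.8% as higher and 6.53% as lower, and the median log2 change was 0.26 over the receptors and 0.02 over all genes. For 3 receptors the non-HF arrays all lay above the sham arrays, against 4.63% of all genes. Between the banded groups, 4 receptors were higher in HF mice than in non-HF mice, namely Itgav, Itgb5, Ddr1 and Cd44, and 0 were lower, where 9.48% of all genes passed, 3.83% as higher and 5.65% as lower. The median log2 change was 0.21 over the receptors and -0.01 over all genes, and only Itgav had HF arrays that all lay above the non-HF arrays, as 0.839% of all genes did. When non-HF arrays 5 to 7, described next, were left out, 4 receptors passed in non-HF mice against sham mice (14.5% of all genes) and 2 between the banded groups, Itgb5 and Cd44 (1.02% of all genes). The 3 comparisons share mice, so their results are not independent of each other.

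**Figure D1:**
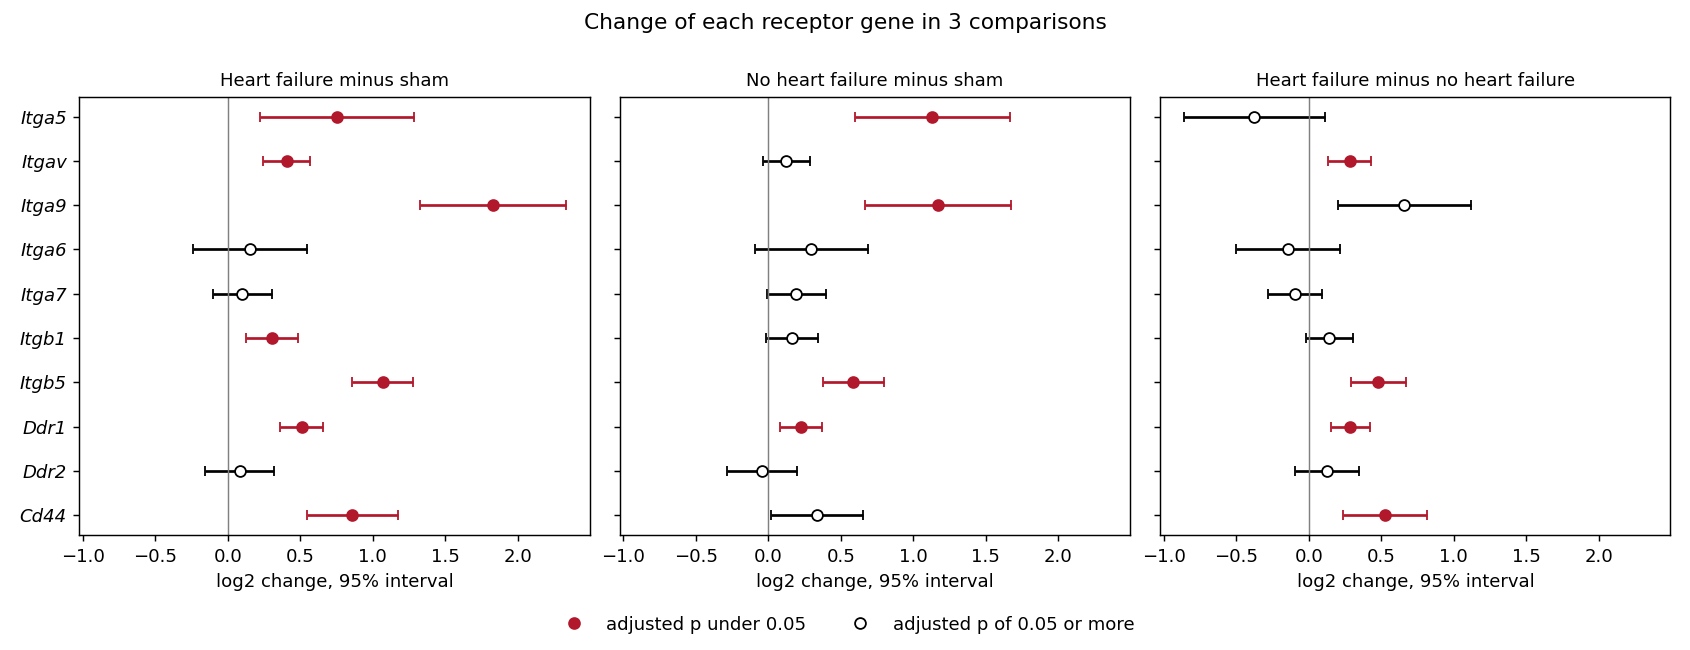
Log2 change of each receptor gene (x axis) in HF mice minus sham mice, non-HF mice minus sham mice and HF mice minus non-HF mice, with 95% intervals of the limma fit over 19 arrays. Filled red points passed an adjusted p of 0.05. Itga9 had the largest change against sham in both banded groups, 1.83 and 1.17, and no point that passed lies below 0.

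Some arrays stood apart from the others by their control signals. The 18S ribosomal control signal was above a log2 of 8 on 6 arrays, those of non-HF mice 5 to 7 and sham mice 1 to 3, and below it on the other 13, which include all 7 HF arrays. Non-HF arrays 5 to 7 also had a BioC hybridisation control of 8.60 to 9.20, against 10.2 to 11 on the other arrays, so results that rest on them are given with and without them. The difference between the 3′ and 5′ actin probe sets, which grows as RNA is degraded, was 0.66 to 0.90 in HF mice, 0.67 to 0.90 in non-HF mice and 0.94 to 1.02 in sham mice (exact permutation p = 0.00253 for each banded group against sham, two-sided, the smallest these group sizes allow). Its part in the results below was not tested beyond the fits that include it as a covariate. The banded and sham ranges do not overlap, so those fits cannot separate the actin difference from banding. The cardiomyocyte gene Myl2 was at 15.6 to 15.9 on all arrays. The atrial transcript Myl7 ranged over 2.30 to 13.9 in HF mice, 8.86 to 13.8 in non-HF mice and 7.53 to 12.7 in sham mice.

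Markers of fibroblasts moved with the groups. Of 10 such markers, 8 rose in HF mice against sham mice, 5 rose in non-HF mice against sham mice and 3 rose in HF mice against non-HF mice, with 0 lower in each. Leaving out non-HF arrays 5 to 7, 3 rose in non-HF mice against sham mice and 0 in HF mice against non-HF mice. Those of the second comparison over all arrays were Pdgfra, Lum, Tcf21, Col15a1 and Mfap5, and those of the third Dcn, Mfap5 and Gsn. Their summed level, as log2, was 16.26 to 16.59 in HF mice, 15.95 to 16.32 in non-HF mice and 15.86 to 16.16 in sham mice. Of 14 macrophage and leukocyte markers, 0 passed in any of the comparisons, and their summed level was 13.30 to 13.91 in HF mice, 13.44 to 13.68 in non-HF mice and 13.18 to 14.48 in sham mice. Of 11 endothelial markers, 4 rose in HF mice (Pecam1, Tie1, Robo4 and Esam) and 2 in non-HF mice (Tie1 and Robo4) against sham mice, and their summed level was 13.36 to 13.76 in HF mice, 13.53 to 13.82 in non-HF mice and 13.32 to 13.47 in sham mice. Between the banded groups 1 endothelial marker, Cdh5, was lower in HF mice and 0 were higher, and with non-HF arrays 5 to 7 left out 0 passed. Of 10 cardiomyocyte markers, Tnni3, Pln, Myh6 and Ryr2 fell in HF mice against sham mice, with log2 changes of -0.15 to -0.27, and Mybpc3 rose (log2 change 0.27). Mybpc3 alone passed in non-HF mice against sham mice, as higher, and Tnni3 alone between the banded groups, as lower. The summed cardiomyocyte level was 18.78 to 18.88 in HF mice, 18.84 to 18.90 in non-HF mice and 18.85 to 18.94 in sham mice. Of 10 smooth muscle and pericyte markers, 3 were higher and 2 lower in HF mice than in sham mice, 3 higher and 1 lower in non-HF mice than in sham mice, and 0 higher and 2 lower in HF mice than in non-HF mice. Leaving out those 3 arrays, no cardiomyocyte or smooth muscle marker passed between the banded groups. The summed smooth muscle and pericyte level was 15.18 to 15.37 in HF mice, 15.21 to 15.48 in non-HF mice and 15.19 to 15.28 in sham mice. The part of these cell type markers in the receptor results was not tested.

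The start regions of Itgb5, Itga5 and Cd44 are shown because Itgb5 had the smallest adjusted p of the receptors, and Itga5 and Cd44 varied together within the groups, as described further on. They are RefSeq windows of 250 bases before to 50 bases after the start on GRCm38.p6, given in the direction of the gene. RefSeq windows were at hand for 8 of the 10 receptors, with 11 windows in all. Capitals mark matches on either strand to the GC box GGGCGG or to the SMAD letters CAGAC. The Itgb5 window is chr16:33829415-33829714 on the + strand, that of Itga5 chr15:103366742-103367041 on the - strand and that of Cd44 chr2:102901616-102901915 on the - strand.
Itgb5: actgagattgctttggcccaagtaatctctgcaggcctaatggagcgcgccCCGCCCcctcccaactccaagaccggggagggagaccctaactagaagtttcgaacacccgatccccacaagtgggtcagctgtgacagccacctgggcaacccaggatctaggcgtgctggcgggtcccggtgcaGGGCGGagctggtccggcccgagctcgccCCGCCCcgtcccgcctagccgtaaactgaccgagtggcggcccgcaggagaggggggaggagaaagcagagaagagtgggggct
Itga5: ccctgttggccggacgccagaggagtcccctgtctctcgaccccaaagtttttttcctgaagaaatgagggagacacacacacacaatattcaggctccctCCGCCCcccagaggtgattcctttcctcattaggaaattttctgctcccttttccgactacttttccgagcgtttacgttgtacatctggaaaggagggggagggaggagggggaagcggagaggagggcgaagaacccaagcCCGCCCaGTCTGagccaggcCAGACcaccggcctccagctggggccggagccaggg
Cd44: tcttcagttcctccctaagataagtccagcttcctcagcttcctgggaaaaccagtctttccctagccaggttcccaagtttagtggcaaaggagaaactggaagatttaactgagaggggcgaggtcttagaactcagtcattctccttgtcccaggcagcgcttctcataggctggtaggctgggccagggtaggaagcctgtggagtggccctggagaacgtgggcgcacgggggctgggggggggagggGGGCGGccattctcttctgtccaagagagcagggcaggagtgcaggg
Itgb5 held 3 GC boxes, Itga5 held 2 GC boxes and 2 SMAD matches, and Cd44 held 1 GC box. The base composition was 65.7% GC in Itgb5, 58.7% in Itga5 and 58.0% in Cd44, against a median of 52.7% over all windows. GC boxes stood in windows of 6 of the 8 receptors and in 35.7% of all 32851 windows. SMAD letters stood in those of 4 receptors and in 49.6% of all windows. The AP-1 letters TGANTCA stood in those of 2 receptors, Itga9 and Ddr1, and in 7.81% of all windows, and in Itga9, whose window is at a start inside the gene, they overlap a SMAD match. The TEAD letters GGAATG stood in that of 1 receptor, Itgb1, and in 14.7% of all windows. Ddr1 has 4 windows and so more chances of a match. A match is a description of these letters and not a binding site.

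Itgb5, the beta subunit that pairs with Itgav, showed the smallest adjusted p of the 10 receptors in each of the comparisons. Its probe set 1456195_x_at had a lowest, median and highest log2 value of 11.83, 12.19 and 12.35 in HF mice. In non-HF mice these were 11.46, 11.65 and 11.86. The 5 sham arrays read 11.08, 10.91, 11.02, 10.996 and 11.15. Every banded mouse of either kind lay above every sham mouse, and the 2 banded groups overlapped by a single non-HF array. The mean was 12.10 ± 0.23 in HF mice, 11.62 ± 0.15 in non-HF mice and 11.03 ± 0.09 in sham mice (SD). The gene was 2.10-fold higher in HF mice than in sham mice (log2 change 1.07, SE 0.10, adjusted p = 3.07e-07). In non-HF mice it was 1.5-fold higher than in sham mice (log2 change 0.59, adjusted p = 0.000668), and in HF mice 1.40-fold higher than in non-HF mice (log2 change 0.48, adjusted p = 0.00461). Without non-HF arrays 5 to 7 both calls remained, at log2 changes of 0.56 (adjusted p = 0.0068) and 0.51 (adjusted p = 0.0381). In the low 18S arrays alone both were lost at similar sizes, 0.52 in non-HF mice against sham mice (adjusted p = 0.0998) and 0.51 in HF mice against non-HF mice (adjusted p = 0.0508).

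Itgb1, the common beta subunit that pairs with most of the alpha subunits here, passed in 1 of the 3 comparisons. Its log2 value on probe set 1426918_at was 11.48 at the lowest, 11.69 at the median and 11.95 at the highest in HF mice. The non-HF arrays had 11.37, 11.50 and 11.69 in the same order. The sham arrays had 11.22, 11.41, 11.54, 11.20 and 11.49. The 3 groups overlapped, with the upper sham arrays inside the HF range. Itgb1 was 1.24-fold higher in HF mice than in sham mice (log2 change 0.30, SE 0.09, adjusted p = 0.00864), and the call was lost with the actin difference as a covariate (log2 change 0.10, adjusted p = 0.493) and in the low 18S arrays alone (log2 change 0.33, adjusted p = 0.073). The log2 changes were 0.16 in non-HF mice against sham mice (adjusted p = 0.206) and 0.14 in HF mice against non-HF mice (adjusted p = 0.257), and neither passed.

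**Figure D2:**
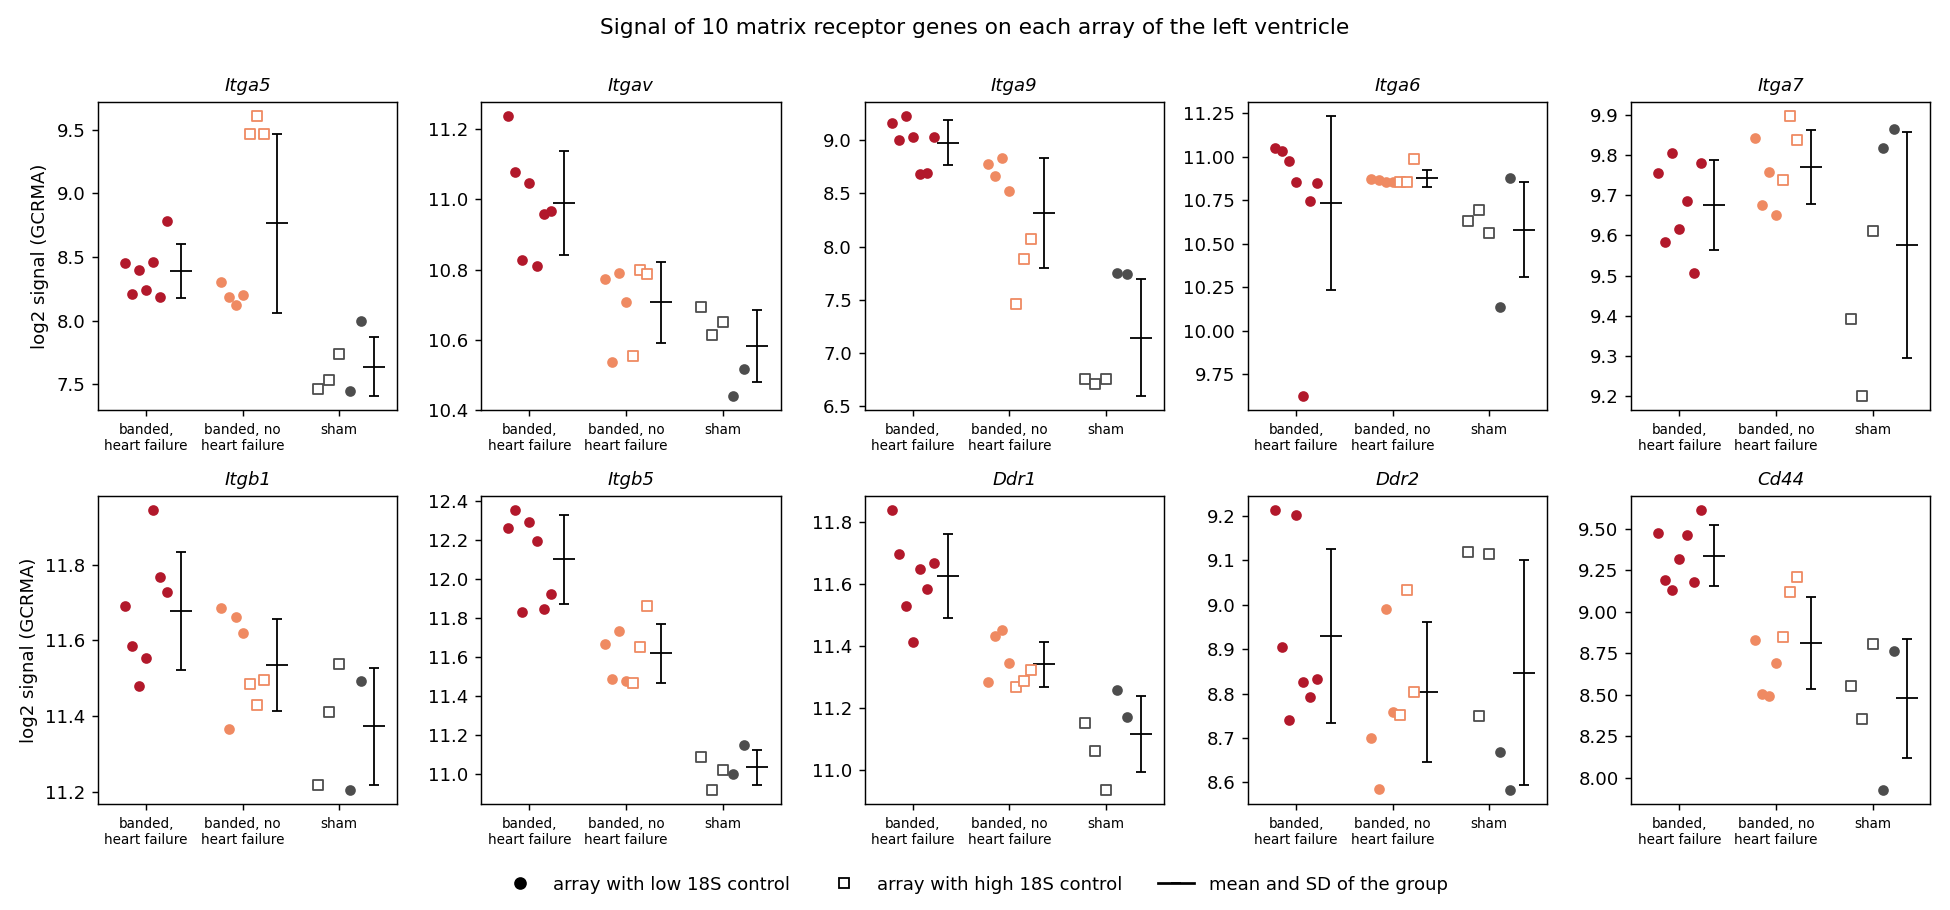
Log2 value (y axis) of each receptor gene's main probe set in every mouse, with HF, non-HF and sham mice from left to right, open squares for arrays of high 18S signal, and black marks for the mean and SD. The HF points of Itgb5, from 11.83 to 12.35, all lie above its sham points, from 10.91 to 11.15, while the points of Ddr2 overlap in all 3 groups.

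Itgav, the alpha subunit of vitronectin and fibronectin receptors that also bind latent TGF-beta, separated the HF mice from all the others on its main probe set. Probe set 1452784_at read 10.81, 10.97 and 11.24 at the lowest, median and highest HF array. The non-HF arrays read 10.54, 10.77 and 10.80. The values in sham mice were 10.69, 10.61, 10.65, 10.44 and 10.52. The lowest HF array lay just above the highest non-HF array, and non-HF and sham arrays overlapped. Against sham mice the gene was 1.33-fold higher in HF mice (log2 change 0.41, SE 0.08, adjusted p = 0.000404), and against non-HF mice 1.22-fold higher (log2 change 0.28, SE 0.07, adjusted p = 0.0176). The difference of 0.12 between non-HF and sham mice did not pass (adjusted p = 0.283, 95% interval -0.04 to 0.29). Without non-HF arrays 5 to 7 the difference between the banded groups was as large, 0.29, and no longer passed (adjusted p = 0.0966).

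Itga5, which with Itgb1 forms the classical fibronectin receptor, was higher in both banded groups than in sham mice, but its non-HF values fell into 2 sets. In HF mice probe set 1423267_s_at had a lowest, median and highest value of 8.19, 8.39 and 8.79. Non-HF mice 1 to 4 read 8.31, 8.19, 8.13 and 8.20, and non-HF mice 5 to 7 read 9.47, 9.61 and 9.47. Sham mice read 7.46, 7.54, 7.73, 7.45 and 7.996. All banded arrays lay above all sham arrays, and the 3 highest values are those of the arrays that stand apart. The gene was 1.69-fold higher in HF mice than in sham mice (log2 change 0.75, SE 0.25, adjusted p = 0.0245), a call that was lost without sham mouse 1 (adjusted p = 0.0571) or sham mouse 2 (adjusted p = 0.053) with no filter on low values and with the mean of its probe sets (adjusted p = 0.0549 for each). Non-HF mice were 2.2-fold above sham mice (log2 change 1.13, adjusted p = 0.00511), and without arrays 5 to 7 the fold was 1.48 (log2 change 0.57, adjusted p = 0.0102). Within the 18S sets the log2 change was 0.48 on low arrays (adjusted p = 0.144) and 1.94 on high arrays (adjusted p = 0.000930). Between the banded groups the log2 change was -0.38 with those arrays (adjusted p = 0.322) and 0.19 without them (adjusted p = 0.486), so its sign changed with them.

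Itga9, a receptor for tenascin C, Vcam1 and Svep1 among others, had the largest change of the 10 against sham mice. On probe set 1460285_at the lowest, median and highest HF values were 8.69, 9.03 and 9.23. In non-HF mice the values were 8.77, 8.66, 8.83 and 8.53 in mice 1 to 4, and 7.47, 7.89 and 8.07 in mice 5 to 7. Sham mice 1 to 3 read 6.75, 6.71 and 6.76, and sham mice 4 and 5 read 7.76 and 7.74. Within both the non-HF and the sham group, the arrays with high 18S signal were the lower ones, without overlap. The gene was 3.56-fold higher in HF mice than in sham mice over all arrays (log2 change 1.83, SE 0.24, adjusted p = 1.08e-05), and the log2 change was 1.23 within the arrays of low 18S signal (adjusted p = 0.0002, 7 HF and 2 sham mice). Non-HF mice were 2.25-fold above sham mice (log2 change 1.17, SE 0.24, adjusted p = 0.00278), with log2 changes of 0.95 within the low 18S arrays and 1.07 within the high ones. That call was lost with the actin difference as a covariate (log2 change 0.88, adjusted p = 0.0974). Without non-HF arrays 5 to 7 the non-HF difference from sham mice was 1.55 (2.93-fold, adjusted p = 0.000471).

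Between HF and non-HF mice, Itga9 differed by 0.66 on the log2 scale and missed the threshold (adjusted p = 0.0647). It passed under 5 of the alternatives: with its probe sets averaged (log2 change 0.61, adjusted p = 0.0198), with the animal ID series as a block (0.59, adjusted p = 0.0293), with only the 2 groups compared (adjusted p = 0.0451), and without non-HF mouse 1 (adjusted p = 0.0458) or non-HF mouse 3 (adjusted p = 0.0427). Without non-HF arrays 5 to 7 the difference was 0.28 (adjusted p = 0.549), and within the 3 series of animal IDs it was 1.27, 0.38 and 0.15. The non-HF mice of the first series are exactly those of arrays 5 to 7.

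**Figure D3:**
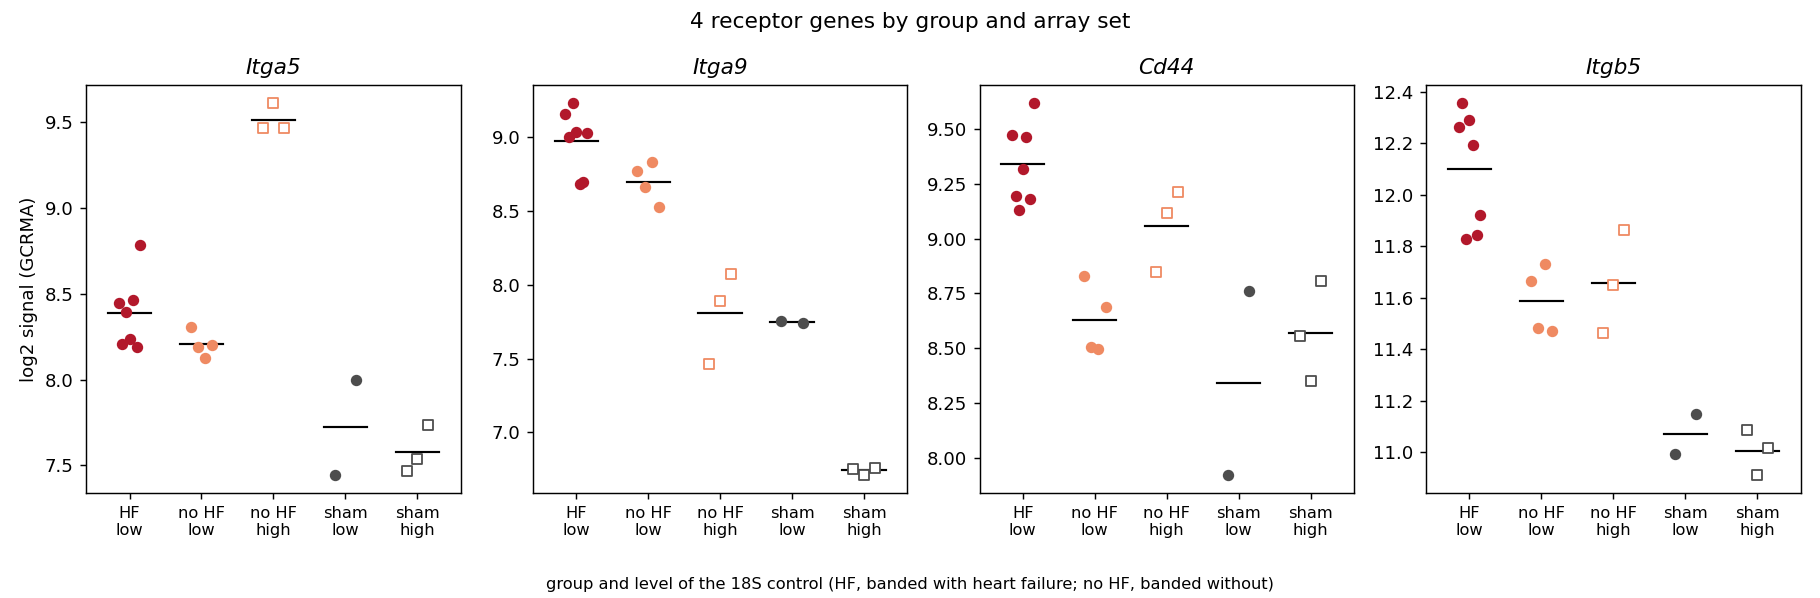
Log2 values (y axis) of Itga5, Itga9, Cd44 and Itgb5 in HF, non-HF and sham mice, with arrays of low 18S control signal as filled circles, those of high signal as open squares, and horizontal lines at the means. Itga5 is higher and Itga9 lower on non-HF arrays 5 to 7, at 9.47 to 9.61 and 7.47 to 8.07, than on non-HF arrays 1 to 4, at 8.13 to 8.31 and 8.53 to 8.83.

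The laminin receptors Itga6 and Itga7 did not pass in any of the comparisons. Itga6, found in many cell types with laminin contacts, read 9.62, 10.85 and 11.05 at the lowest, median and highest HF array on probe set 1422445_at. Its non-HF arrays lay within 10.85 to 10.99, with a median of 10.86. Its sham arrays read 10.63, 10.69, 10.56, 10.14 and 10.88. The non-HF arrays were tightly grouped, and a single HF mouse, number 5, lay below every other array. The log2 change was 0.15 in HF mice against sham mice (adjusted p = 0.542, 95% interval -0.24 to 0.54), 0.30 in non-HF mice against sham mice (adjusted p = 0.29; 0.75 and adjusted p = 0.0399 with the actin difference as a covariate) and -0.14 between the banded groups (adjusted p = 0.638). Without HF mouse 5 the change against sham mice was 0.34 and passed (adjusted p = 0.00984).

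Itga7, the main laminin-binding alpha subunit of striated muscle, overlapped between all 3 groups. Probe set 1418393_a_at read 9.51, 9.69 and 9.80 at the lowest, median and highest HF array. The non-HF arrays had 9.65, 9.76 and 9.90 in that order. Sham mice read 9.39, 9.20, 9.61, 9.82 and 9.86, a range that held every HF array. The log2 change was 0.10 in HF mice against sham mice (adjusted p = 0.439, 95% interval -0.10 to 0.30) and 0.19 in non-HF mice against sham mice (adjusted p = 0.177). Between the banded groups it was -0.10 (adjusted p = 0.532).

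Of the collagen receptor kinases, Ddr1 rose and Ddr2 did not pass. Ddr1, known best from epithelial cells, read 11.41, 11.65 and 11.84 at the lowest, median and highest HF array on probe set 1456226_x_at. The non-HF arrays read 11.27, 11.32 and 11.45. The sham arrays read 11.15, 11.06, 10.93, 11.26 and 11.17. On this probe set the groups stood in steps, with non-HF just above the highest sham array and an overlap only between the banded groups. The gene was 1.43-fold higher in HF mice than in sham mice (log2 change 0.51, SE 0.07, adjusted p = 1.83e-05). In non-HF mice it was 1.17-fold higher than in sham mice (log2 change 0.23, SE 0.07, adjusted p = 0.0335). This smaller call was lost when any of non-HF mice 2, 3 and 4 or sham mice 1, 2 and 3 was left out (adjusted p between 0.0512 and 0.0988), under both other scalings, and with the actin difference as a covariate (log2 change 0.18, adjusted p = 0.249). Between HF and non-HF mice the log2 change was 0.28 (1.22-fold, adjusted p = 0.0109), and without non-HF arrays 5 to 7 it was 0.25 and did not pass (adjusted p = 0.131). Averaging its probe sets gave 0.17 (adjusted p = 0.174). Of the other probe sets, 1435820_x_at passed between the banded groups (0.31, adjusted p = 0.0257). Probe sets 1415797_at (0.08, adjusted p = 0.650), 1415798_at (0.16, adjusted p = 0.705) and 1437619_x_at (0.0002) did not. In non-HF mice against sham mice 1415797_at and 1415798_at were higher (0.53, adjusted p = 0.00209, and 0.91, adjusted p = 0.0188), and 1435820_x_at did not pass (0.19, adjusted p = 0.147).

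Ddr2, the collagen receptor kinase of fibroblasts and other mesenchymal cells, read 8.74, 8.83 and 9.21 at the lowest, median and highest HF array on probe set 1455688_at. Its non-HF arrays read 8.59, 8.76 and 9.03. Its sham arrays read 9.12, 8.75, 9.12, 8.67 and 8.58. The 3 groups covered nearly the same range. The log2 change was 0.08 in HF mice against sham mice (adjusted p = 0.593, 95% interval -0.16 to 0.32), -0.04 in non-HF mice against sham mice (adjusted p = 0.829) and 0.13 between the banded groups (adjusted p = 0.472). The interval against sham mice lies below the measured change of Ddr1, while the difference between the 2 genes was not tested.

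Cd44, the hyaluronan receptor, which also binds osteopontin and is carried by leukocytes and activated fibroblasts among other cells, was highest in HF mice. Probe set 1434376_at read 9.13, 9.32 and 9.62 at the lowest, median and highest HF array. Non-HF mice 1 to 4 read 8.83, 8.51, 8.50 and 8.69, and non-HF mice 5 to 7 read 8.85, 9.12 and 9.21. Sham mice read 8.55, 8.35, 8.80, 7.93 and 8.76. No HF array overlapped the sham arrays, and only non-HF mouse 7 reached into the HF range. The gene was 1.81-fold higher in HF mice than in sham mice (log2 change 0.86, SE 0.15, adjusted p = 0.000218). It was 1.44-fold higher in HF mice than in non-HF mice (log2 change 0.53, SE 0.14, adjusted p = 0.0234), a call lost without non-HF mouse 2 (adjusted p = 0.0513) and with its probe sets averaged (log2 change 0.44, adjusted p = 0.0772). Without non-HF arrays 5 to 7 the difference was 0.71 (1.63-fold, adjusted p = 0.0371). The change of 0.33 in non-HF mice against sham mice did not pass (adjusted p = 0.135), and it was 0.15 without those arrays (adjusted p = 0.543). It passed with the animal ID series as a block (log2 change 0.38, adjusted p = 0.0336) and with the 18S set as a block (0.39, adjusted p = 0.0418).

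The labels give animal IDs and name no batch. The IDs were split here by their numbers into 3 series, which each hold mice of every group and were taken as possible batches. Within each series, every receptor called over all mice kept its direction: 7 of 7 in HF mice against sham mice, 4 of 4 in non-HF mice against sham mice and 4 of 4 between the banded groups. The series are parts of the same mice, and 2 of the 3 hold only 1 sham mouse. A receptor whose groups did not overlap, as for 6 of the 7, had to keep its direction. These counts are therefore a description and not a separate check. For Itgb5 the log2 changes in HF mice against sham mice were 1.30, 1.06 and 0.84 in the 3 series. The first series holds every array of high 18S signal, those of non-HF mice 5 to 7 and sham mice 1 to 3. Its HF mice, 1 and 2, had low 18S signal. The series and the 18S set are therefore not separate checks. With the series as a block, 7, 5 and 5 receptors passed in the 3 comparisons, and with the 18S set as a block, 7, 5 and 4. Among the 13 arrays of low 18S signal alone, 6 receptors passed in HF mice against sham mice, 1 in non-HF mice against sham mice (Itga9) and 1 between the banded groups (Cd44). Those arrays are of 7 HF, 4 non-HF and 2 sham mice. The share of all genes that passed is not given for these fits or for those with blocks. The counts are therefore not read as a result about the receptors.

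The 10 genes have 39 probe sets on the array, of which 27 were above the filter. Of the 27, 20 were higher in HF mice than in sham mice and 0 lower, where 36.4% of all probe sets tested passed. In non-HF mice against sham mice 12 were higher and 0 lower (14.2% of all probe sets), and between the banded groups 10 were higher and 0 lower (5.91%). The 4 probe sets of Itgb5 ran closely together, with log2 changes of 0.89 to 1.14 in HF mice against sham mice. The 2 other probe sets of Itga9 passed between HF and non-HF mice, unlike the main one, at log2 changes of 0.68 (adjusted p = 0.017) and 0.47 (adjusted p = 0.040). For Cd44 and Itgav only the main probe set passed there. Cd44 probe sets 1423760_at (0.47, adjusted p = 0.140) and 1452483_a_at (0.31, adjusted p = 0.341) did not. Neither did Itgav probe set 1421198_at (0.43, adjusted p = 0.219). The second probe set of Itga5, 1423268_at, had a log2 change of 0.34 in HF mice against sham mice and did not pass (adjusted p = 0.191). For Ddr1, probe set 1437619_x_at had a mean of 5.29 in all 3 groups, while the other 4 rose by 0.50 to 1.08 in HF mice against sham mice.

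**Figure D4:**
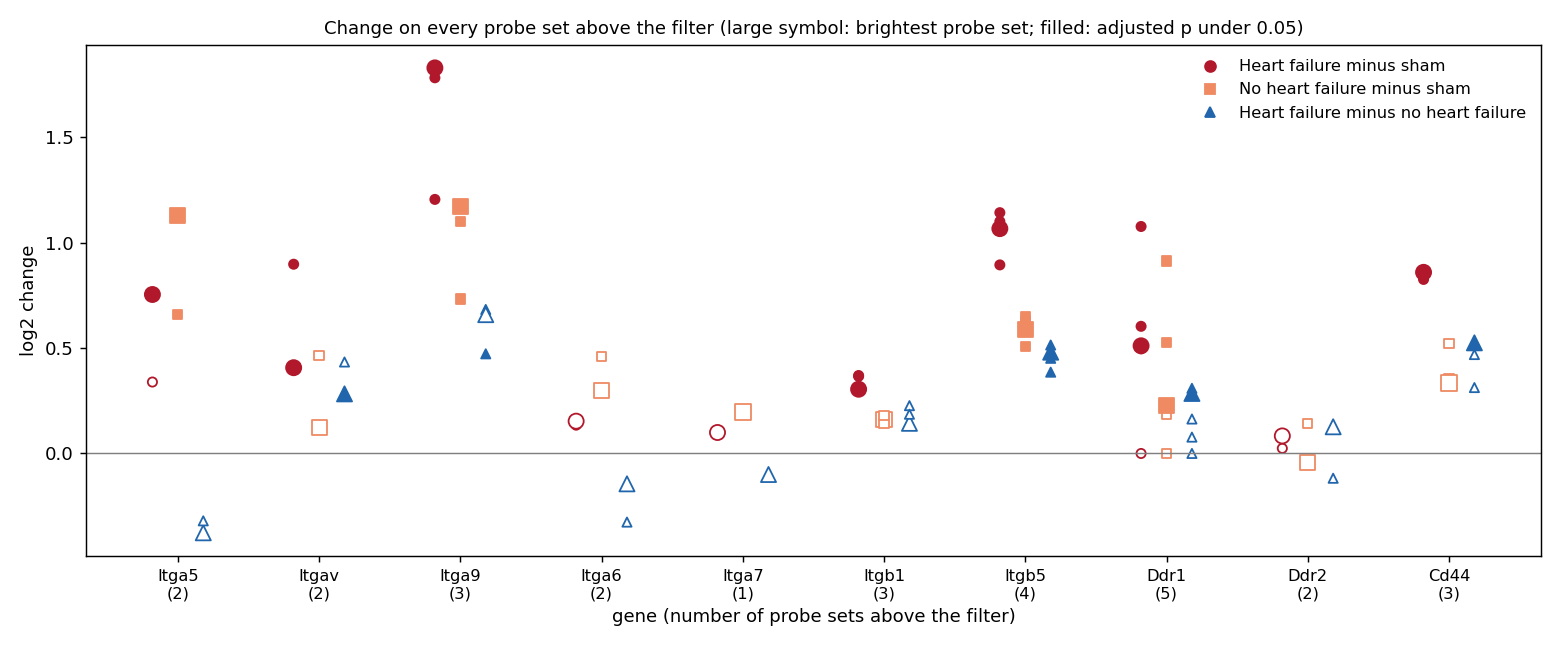
Log2 change (y axis) of each probe set above the filter (points) for the 10 receptor genes (x axis) in HF mice minus sham mice, non-HF mice minus sham mice and HF mice minus non-HF mice. The large symbol is the brightest probe set of a gene, and filled symbols passed an adjusted p of 0.05. The 4 probe sets of Itgb5 lie between 0.89 and 1.14 in the first comparison, and those of Ddr2 lie near 0.

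Within groups, the deviations of the receptors from their group means showed which of them varied together over the 19 arrays. The pair most alike was Itgav and Ddr2, with r = 0.75, followed by Itga5 and Cd44, with r = 0.71, and Itgav and Itgb5, with r = 0.56. At the other end Itga5 and Itga9 had r = -0.54 over all arrays and 0.26 without non-HF arrays 5 to 7. Over the 16 arrays left, Itga9 and Itga7 were the pair most alike, with r = 0.83 against 0.48 over 19 arrays. Itgav and Ddr2 (0.77) and Itga5 and Cd44 (0.73) followed. Both Itga9 and Itga7 were lower on sham arrays 1 to 3, those of high ribosomal control signal, than on sham arrays 4 and 5. Itga9 read 6.71 to 6.76 against 7.74 and 7.76, and Itga7 read 9.20 to 9.61 against 9.82 and 9.86. The part of this split in the r of 0.83 was not tested. The 2 genes most alike to Itgb5 among all those tested were Cnn3 (r = 0.85) and Emilin1 (r = 0.82). For Itgav they were Vim (r = 0.91) and Adcy3 (r = 0.86), and for Cd44 B4galt1 (r = 0.89) and Zfp691 (r = 0.84). Vim is also 1 of the 10 fibroblast markers.

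The nearest genes to Itga9 were Kmt5a (r = 0.96) and Lpgat1 (r = 0.95), and to Itga6 Nrp2 (r = 0.96) and Plxnd1 (r = 0.94). Those nearest to Itga5 were Arhgap10 and Atp6v0a1, both at r = 0.96 over 19 arrays and at 0.71 and 0.75 without the 3 arrays that stand apart. Itga7 lay nearest to Lmna and Dbndd2 (both r = 0.87), Itgb1 to Fam207a and Zfp207 (both r = 0.85), Ddr1 to Tsc22d1 (r = 0.77) and Gadd45g (r = 0.76), and Ddr2 to Cnpy4 (r = 0.87) and Cd55 (r = 0.86). These coefficients share the arrays and the group means and describe these 19 mice only. Within the non-HF and sham groups, Itga9 was lower on the arrays of high ribosomal control signal. The part of that split in the coefficients of Itga9 with Kmt5a and Lpgat1 was not tested. Itga6 read 9.62 in HF mouse 5, against 10.75 to 11.05 in the other HF mice. The part of that mouse in the coefficients of Itga6 with Nrp2 and Plxnd1 was not tested either.

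The ligands of the receptors were the list with the most changes. Of 25 ligand genes tested, 20 were higher and 2 lower in HF mice than in sham mice, with a median log2 change of 1.07. Periostin, Postn, which Itgav integrins bind, was 7.94-fold higher at an adjusted p of 4.34e-08. Svep1, a large matrix protein and ligand of the Itga9 receptor, was 7.24-fold higher, and Col1a1, a chain of the fibrillar collagen that activates the Ddr kinases, 5.81-fold. In non-HF mice against sham mice 17 were higher and 0 lower, led by Svep1 (3.87-fold), Postn (3.79-fold) and Col1a1 (3.18-fold), with a median of 0.70. Between HF and non-HF mice 12 were higher and 1 lower, led by Tnc (2.22-fold), the tenascin that Itga9 binds, Postn (2.09-fold) and Col1a2 (1.91-fold), with a median of 0.39. With non-HF arrays 5 to 7 left out, the ligands higher were 18 in non-HF mice against sham mice and 1 between the banded groups (Emilin1), where 1 was lower (Lama5). There the adjusted p was 0.0561 for Postn (log2 change 1.01) and 0.0836 for Tnc. The median over all genes was 0.01, 0.02 and -0.01 in the 3 comparisons.

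On the inner side of the membrane, 11 of 22 integrin adaptor and focal adhesion genes were higher and 1 lower in HF mice than in sham mice. Ptk2b, a kinase related to focal adhesion kinase, was 3.73-fold higher (adjusted p = 1.25e-07). Lims1, an adaptor bound to integrin-linked kinase, was 2.55-fold higher (adjusted p = 0.0301), and Actn1, an alpha-actinin of non-muscle adhesions, 2.20-fold higher (adjusted p = 3.13e-06). In non-HF mice against sham mice 6 were higher and 1 lower, with Ptk2b at 2.35-fold and Zyx, a mechanosensitive adhesion protein, at 1.72-fold. Between the banded groups 2 were higher and 0 lower, Ptk2b (log2 change 0.66, adjusted p = 0.011) and Actn1 (0.51, adjusted p = 0.0138). The median log2 changes of the list were 0.34, 0.26 and 0.09 in the 3 comparisons. Leaving out non-HF arrays 5 to 7, 8 were higher and 1 lower in non-HF mice against sham mice, and 0 passed between the banded groups, with Ptk2b at a log2 change of 0.74 (adjusted p = 0.0677) and Actn1 at 0.49 (adjusted p = 0.110).

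Among the other integrin subunits, 8 of 19 were above the filter, with median log2 changes of 0.11, 0.04 and 0.13 in the 3 comparisons. Itga1, a collagen-binding alpha subunit, was the only one of these 8 to pass in any of the comparisons over all arrays, at 1.42-fold in HF mice against sham mice (adjusted p = 0.000384) and a log2 change of 0.28 between HF and non-HF mice (adjusted p = 0.0494). With non-HF arrays 5 to 7 left out, the second call was lost (log2 change 0.18, adjusted p = 0.410), and Itga1 passed in non-HF mice against sham mice (log2 change 0.33, adjusted p = 0.0454). Of 4 other collagen receptors tested, Mrc2, which takes up collagen into cells, was 2.87-fold higher in HF mice and 2.13-fold higher in non-HF mice than in sham mice, and the other 3 did not pass. Of 7 hyaluronan genes tested, Vcan, a proteoglycan that binds hyaluronan, was 2.58-fold higher in HF mice than in sham mice and 1.64-fold higher than in non-HF mice, where the call was lost without non-HF arrays 5 to 7 (log2 change 0.78, adjusted p = 0.130). Cemip2, which degrades hyaluronan, was 1.49-fold higher in HF mice than in sham mice, and no hyaluronan gene passed in non-HF mice against sham mice.

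The left ventricular weight index of the labels, weight over tibia length, was 8.97 ± 0.61 in HF mice, 6.98 ± 0.44 in non-HF mice and 5.14 ± 0.26 in sham mice (SD). Within each banded group the 10 receptors were set against it, giving 20 correlations with r between -0.33 and 0.81. After Benjamini-Hochberg adjustment 0 passed by an exact permutation test on r, and 0 by Spearman's rho. The strongest, Itgav in non-HF mice, had r = 0.81 (exact permutation p = 0.0214, adjusted p = 0.42, n = 7) and rho = 0.71 (exact permutation p = 0.088). Without the 2 mice farthest from the median index, r fell to 0.02. Leaving them out also narrows the range of the index, so the fall does not settle what r rests on.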

How the data were processed

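The authors deposited log2 expression values from 19 arrays. Per the submitters' processing notes these are GCRMA values, of no stated version. GCRMA draws dim probe sets to a common floor, which compresses their fold changes. Arrays have no count depth, so the number of arrays limits the precision.

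Of 45101 probe sets, 34958 had 1 symbol in the platform annotation, 932 had several and 9211 were not listed; 34754 gene IDs were found in the RefSeq gene table and 0 symbols changed. A probe set was kept if 5 or more arrays exceeded a log2 of 4, which left 20497, and the brightest of each gene stood for it, 10733 genes in all. Groups were taken from the labels and compared by moderated linear models (limma 3.58.1 in R 4.3.3), fitted once over all arrays with no term other than group; p-values were adjusted over all genes by Benjamini-Hochberg, threshold 0.05. The fit was tested on simulated data. Probe sets were compared in the same way over all 20497. Correlations and control signals used exact permutation tests (scipy 1.17.1, Python 3.11.15).

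The 10 receptors are named throughout. Of each other list, up to 3 genes with the largest change past the threshold are named, and for each receptor the 2 genes whose deviations from group means correlate best with its own. The receptors, the lists and the tests were chosen with earlier results of these data known. Alternatives were no filter and a stricter filter, the mean of a gene's probe sets, quantile normalisation and equal array medians, a trended robust fit, 2 groups at a time, blocks for animal ID series and 18S set, the actin difference as a covariate, and each mouse left out in turn. The low 18S arrays alone, and leaving out the 3 non-HF arrays of high 18S signal, were added after seeing the data. The arrays name no genome build, so only the RefSeq windows carry coordinates.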

Additional observations from a re-analysis of the deposited data

Results flagged for a closer look

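In 30 groups of values (10 receptors in 3 groups), 2 held a mouse far from the others by Dixon's test; chance flags about 1 in 20 groups. Itga6 was 9.62 in HF mouse 5, against 10.75 to 11.05 in the other HF mice. Itga6 was also 10.99 in non-HF mouse 7, against 10.85 to 10.87 in the other non-HF mice, a gap that is wide only beside the narrow spread of that group.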

How the results depend on the processing

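The counts of receptors past the threshold were within 1.5 times of 7 (HF against sham mice), 4 (non-HF against sham mice) and 4 (HF against non-HF mice) under every alternative set beforehand. With each mouse left out in turn they ranged over 6 to 8, 3 to 4 and 3 to 5, and the weight correlations that passed stayed at 0. Alternatives added later fell outside that range, and they hold fewer arrays. The low 18S arrays alone gave 1 receptor in non-HF against sham mice and 1 in HF against non-HF mice. The fit without non-HF arrays 5 to 7 gave 2 in HF against non-HF mice. The share of all genes that passed is not given for most of these alternatives. Their counts are therefore not read as a result about the receptors. The log2 change that turned round was, for Ddr2 in non-HF against sham mice, 0.049 with the mean of probe sets, 0.20 with the actin covariate, 0.025 and 0.024 without sham mouse 1 or 3 and 0.13 in the low 18S arrays. It was -0.042 for Itgb1 in non-HF against sham mice with the actin covariate, and 0.041 for Itga6 in HF against non-HF mice without HF mouse 5, where the other mice left out gave down to -0.20. In the low 18S arrays it was -0.16 and -0.11 for Itga7 in HF and non-HF mice against sham mice, and 0.19 for Itga5 in HF against non-HF mice, as it was without non-HF arrays 5 to 7. None of these passed a threshold, and the cause was not tested. Over all genes, the calls in HF against sham mice were 2193 higher and 2027 lower, and 1793 and 2587 after quantile normalisation, and 1689 and 2762 with equal array medians; in non-HF against sham mice they were 1164 and 701, 902 and 926, and 862 and 1050. Every receptor call kept its direction under both scalings. No paired analysis was possible because the labels give the mice no replicate numbers that pair them across groups.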

Other observations

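The keratin Krt18, fixed here as an epithelial marker, was 5.71-fold higher in HF mice than in sham mice and 2.45-fold higher in non-HF mice than in sham mice. Its mean log2 values were 6.66, 5.44 and 4.15 in HF, non-HF and sham mice. The sham mean lay close to the filter, a log2 of 4. Of the 8 epithelial and mesothelial markers, only Krt18 and Wt1 were tested. Of these 2, 1 passed against sham mice in each banded group, as higher. Epcam, Krt19 and Cdh1 stayed below the filter on every array. Upk3b, Msln and Krt8 reached a log2 of 7.33, 6.88 and 4.58 on their highest array, but exceeded the filter on too few arrays to be tested. Itgb6, an integrin beta subunit known from epithelia, was not among the 10 receptors. It averaged 5.78 in HF mice, 6.84 in non-HF mice and 7.04 in sham mice on the log2 scale and passed in none of the 3 comparisons by limma, with an adjusted p of 0.0512 in HF against sham mice (log2 change -1.25).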
